A study of Mus musculus with 4 samples.

Results

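Interleukins and their receptors were followed in the epididymal adipose tissue of mice on 2 high-fat feeding schedules. The members were all genes of the expression matrices whose symbol starts with Il and a number, 83 of 24421 genes. By role, 36 were ligands, 38 were receptor chains, 7 were decoys or antagonists, and 2, Il4i1 and Il1bos, were neither cytokine nor receptor. Poly(A) RNA was sequenced in 4 libraries from wild-type male C57BL/6J mice, 2 per group. The control group (Ctrl) was on a high-fat diet (HFD) without interruption for 14 weeks, starting at 10 weeks of age. The weight-cycling group (WC1) started at 8 weeks of age with 8 weeks of HFD, changed to standard diet (SD) for 2 weeks and returned to HFD for 6 weeks. The time on HFD came to 14 weeks in either group and the age at the end to 24 weeks, but the WC1 group met the diet at a younger age and had the SD weeks in between, and these cannot be told apart. The labels do not say whether the libraries came from single mice or from pools, so the p-values measure the spread between these libraries only.

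Interleukins are secreted signalling proteins of immune and stromal cells, and most act through receptors of more than 1 chain, several of which are shared between ligands. The IL-1 family (IL-1, IL-18, IL-33 and the IL-36 group) signals through MyD88 to NF-kB, while most other families use JAK kinases and STAT factors. Signals are held back by decoy receptors, which bind a ligand without passing it on, by soluble binding proteins and by receptor antagonists. In adipose tissue IL-33 and its receptor are known for their link to regulatory T cells and group 2 innate lymphoid cells, IL-4 and IL-13 for their action on macrophages, and IL-1β for inflammation in obesity.

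The members lower in WC1 included Il33 and its receptor Il1rl1, a ligand and receptor pair of the IL-1 family. Il1f9, which encodes IL-36γ, was read in the Ctrl libraries only. The 250 bases before their RefSeq transcript starts (GRCm38.p6, plus strand, the strand of all 3 genes) are shown for the pair and for Il1f9. The other genes of the family that were lower, Il1r1 and Il18bp, are described with the receptors and decoys. Capitals mark matches to a GATA motif (AGATAA) or a STAT motif (TTCNNNGAA), both strands searched. Il1rl1 and Il33 each had a pair of annotated starts.
Il1rl1, upstream start, chr1:40429320-40429569: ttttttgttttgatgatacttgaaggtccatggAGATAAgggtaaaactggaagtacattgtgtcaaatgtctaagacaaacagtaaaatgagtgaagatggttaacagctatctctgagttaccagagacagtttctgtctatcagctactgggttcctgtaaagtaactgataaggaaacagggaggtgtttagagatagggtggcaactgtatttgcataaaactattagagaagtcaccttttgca
Il1rl1, downstream start, chr1:40439379-40439628: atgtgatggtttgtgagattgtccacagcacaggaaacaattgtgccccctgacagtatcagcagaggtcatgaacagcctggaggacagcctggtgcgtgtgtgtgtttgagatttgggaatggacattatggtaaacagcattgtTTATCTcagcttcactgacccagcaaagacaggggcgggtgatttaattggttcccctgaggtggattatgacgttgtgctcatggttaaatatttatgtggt
Il1f9, chr2:24186226-24186475: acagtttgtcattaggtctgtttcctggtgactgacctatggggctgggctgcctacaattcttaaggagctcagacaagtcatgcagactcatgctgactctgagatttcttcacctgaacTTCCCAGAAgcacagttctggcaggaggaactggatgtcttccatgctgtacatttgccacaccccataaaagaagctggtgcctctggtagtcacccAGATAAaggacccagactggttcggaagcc
Il33, upstream start, chr19:29924863-29925112: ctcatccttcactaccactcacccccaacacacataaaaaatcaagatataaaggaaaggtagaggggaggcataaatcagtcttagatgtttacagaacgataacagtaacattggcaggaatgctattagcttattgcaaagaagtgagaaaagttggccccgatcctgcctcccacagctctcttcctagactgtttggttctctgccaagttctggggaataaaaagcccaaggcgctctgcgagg
Il33, downstream start, chr19:29945540-29945789: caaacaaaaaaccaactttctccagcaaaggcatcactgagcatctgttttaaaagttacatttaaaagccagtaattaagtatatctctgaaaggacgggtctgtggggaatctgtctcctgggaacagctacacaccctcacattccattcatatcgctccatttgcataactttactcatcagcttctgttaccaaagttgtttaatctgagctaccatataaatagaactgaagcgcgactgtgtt

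The GATA letters were found at bases -217 to -212 of the upstream Il1rl1 window, on the reverse strand at -103 to -98 of the downstream one, and at -30 to -25 of the Il1f9 window, counted back from the transcript start. The STAT letters occurred at -128 to -120 of Il1f9. Neither Il33 window held a match to these motifs or to AP-1 (TGANTCA). Windows were at hand for 66 of the 83 members, 81 windows in all. The GATA motif occurred in 13 of them (16.0%) and in 9.99% of all 32851 RefSeq windows of this length. The corresponding figures were 14 (17.3%) and 6.75% for AP-1, and 9 (11.1%) and 7.02% for STAT. These are matches of letters, not sites, and no factor was measured at them.

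The Ctrl libraries held 71658062 and 90965297 reads and the WC1 libraries 61655738 and 61465029, so that 3 reads corresponded to between 0.0345 and 0.0492 CPM. Levels of a gene are given in CPM, the reads of a gene scaled by the authors to a common library size, and levels of different genes are compared in TPM, which also corrects for transcript length. Markers of several other cells moved with the groups. Counts of markers that rose or fell are of those past the test described below. Of all tested genes 10.2% passed it as higher in WC1 and 7.71% as lower. Macrophage markers summed to 10260 and 9284 CPM in Ctrl against 5923 and 4204 CPM in WC1, and 5 of 10 fell. Mast cell markers summed to 580 and 648 CPM against 94.8 and 78.3 CPM, and 8 of 10 fell, with Kit and Gata2 not among them. Adipocyte markers summed to 10310 and 11610 CPM against 18490 and 23590 CPM, with 7 of 10 higher, and 6 of 8 endothelial markers were higher as well. Fibroblast markers summed to 10820 and 10620 CPM against 10270 and 7879 CPM, and 4 of 10 fell. Dendritic cell markers summed to 207 and 221 CPM against 174 and 163 CPM, with 3 of 8 lower and 1 higher. Of 3 tested neutrophil markers only S100a8 was higher. The other tested ones, Csf3r and Mmp8, were lower in both WC1 libraries than in either Ctrl library but did not pass. The neutrophil markers S100a9, Cxcr2 and Retnlg, too rare to be tested, were also lower in both WC1 libraries. Mesothelial markers summed to 129 and 97.0 CPM in Ctrl, 66.0 CPM in WC1 1 and 177 CPM in WC1 2. B cell markers summed to 12.9 and 11.5 CPM in Ctrl, 18.1 CPM in WC1 1 and 71.6 CPM in WC1 2. All 7 of them that were tested were higher in both WC1 libraries than in either Ctrl library (32.7% of all tested genes), and 1 passed the test. Of 8 epididymis genes, 6 were at 0 in every library, and the other 2, Adam7 and Defb20, were read mainly in WC1 1, at 3.01 and 0.115 CPM. The adipocyte genes that define the labelled tissue were abundant in all 4. In bulk tissue fewer cells of a type and less RNA per cell cannot be told apart, and the part of these markers in the results that follow was not tested.

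Most interleukin ligands were rare in this tissue, whereas most receptor chains were present. No read was found in any library for 13 members, which were the ligands Il1f6, Il1f8, Il3, Il9, Il20, Il22, Il24, Il25 and Il31, the antagonists Il1f5 and Il1f10, and the receptor chains Il1rapl2 and Il20ra. A further 25 members had reads but did not reach 0.5 CPM in 2 libraries and were not tested. The other 45 were tested, 11 ligands, 29 receptor chains, 4 decoys or antagonists and Il4i1. Among these 45, Il1f9 passed the minimum only through its Ctrl libraries and Il17rb only through its WC1 libraries, so that each had to differ. Il1f9 is included in the counts that follow, where its call is no support.

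Of the 45 tested members, 15 passed limma's test at an adjusted p under 0.05, where 17.9% of all 14106 tested genes did. WC1 was higher in 4 of them (10.2% of all genes) and lower in 11 (7.71% of all genes). By role, 3 ligands fell and 1 rose, 7 receptor chains fell and 1 rose, and among the decoys and antagonists 1 fell and 1 rose. By family, 5 of the 13 tested IL-1 family genes fell, and of the 12 tested genes of the common gamma chain family 3 fell and 2 rose. The median log2 fold change, WC1 minus Ctrl, was -0.18 over the tested members and -0.02 over all tested genes. The groups did not overlap in 29 of the 45 (69.3% of all tested genes), with WC1 lower in 20 (36.6% of all genes) and higher in 9 (32.7%). With both directions together, separation of the groups was thus no more common among interleukin genes than elsewhere. Its lean to lower in WC1 was larger among the members, and this lean was not tested. For any single gene, 2 libraries against 2 allow an exact permutation p no smaller than 0.333, and the calls rest on the spread that limma pools over genes. They also need both Ctrl libraries: without Ctrl 1 or without Ctrl 2 no member was called higher or lower, although 4 and 4 members were higher and 13 and 11 lower at an unadjusted p under 0.05, and only 0.0425% and 0.0851% of all tested genes were called. Without WC1 1 the counts were 9 higher and 17 lower, and calls rose over all genes too, to 17.2% higher and 19.5% lower. In the TPM matrix 5 members were higher and 9 lower, against 14.6% and 4.13% of all genes. On the reads recovered from the matrix, edgeR (17.6% of all genes called) called 3 members higher and 11 lower, against 10.5% and 7.14% of all genes, and DESeq2 (27.4% of all genes called) called 5 higher and 13 lower, against 15.1% and 12.3%.

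**Figure D1:**
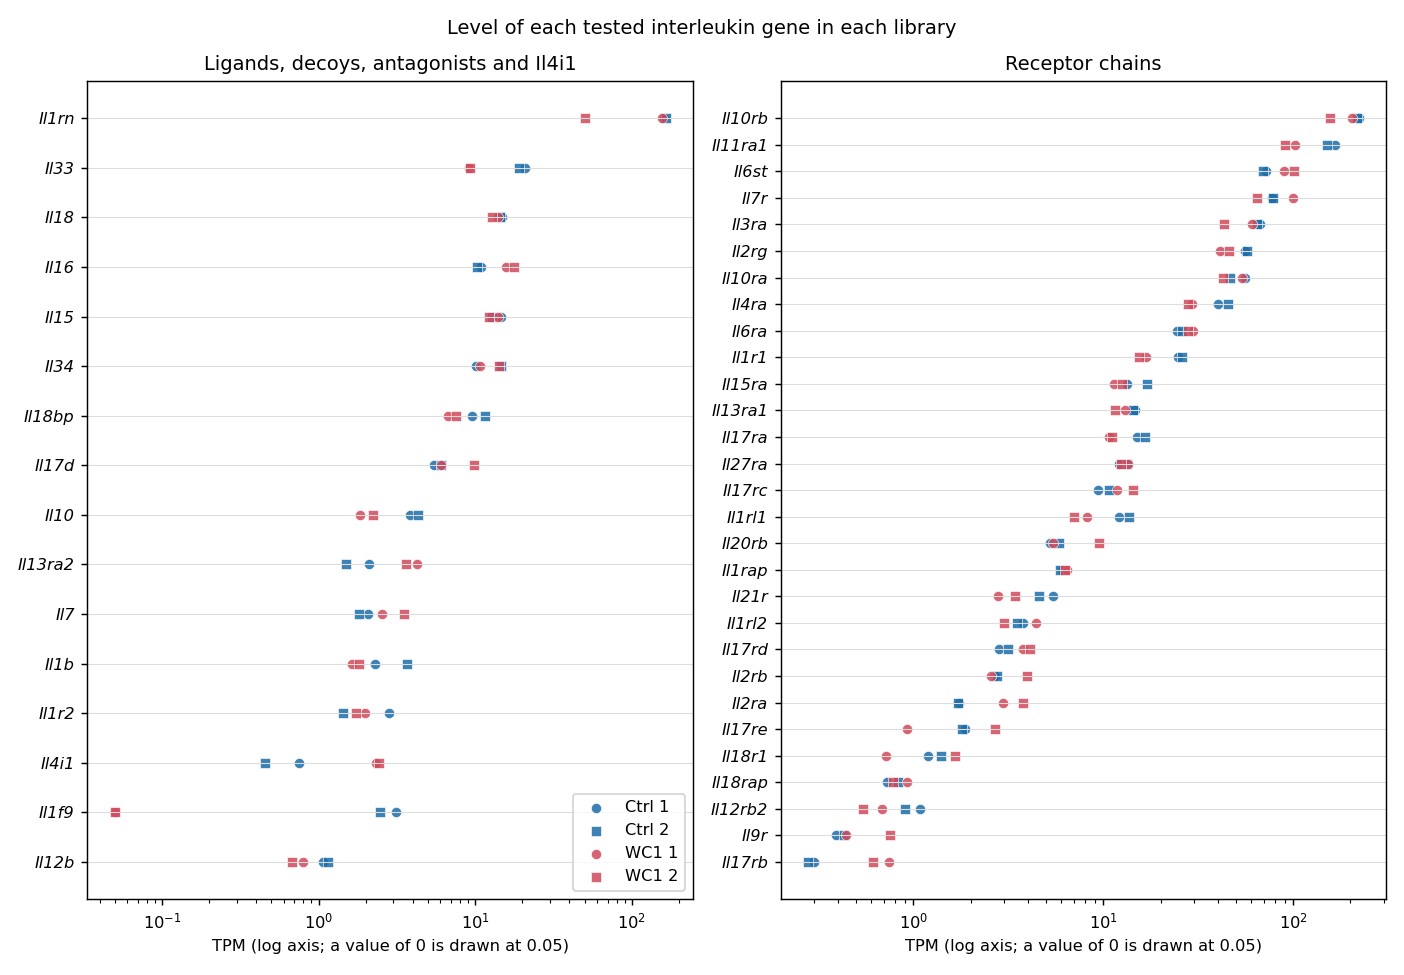
Level in TPM on a log axis of the 45 tested genes in each of the 4 libraries (blue, Ctrl; red, WC1; circle, library 1; square, library 2), with ligands, decoys, antagonists and Il4i1 on the left and receptor chains on the right. Receptor chains reach higher levels than ligands, the Il33 points of the groups lie apart, Il1f9 is at 0 in both WC1 libraries (drawn at the left edge), and WC1 2 stands apart for Il1rn.

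**Figure D2:**
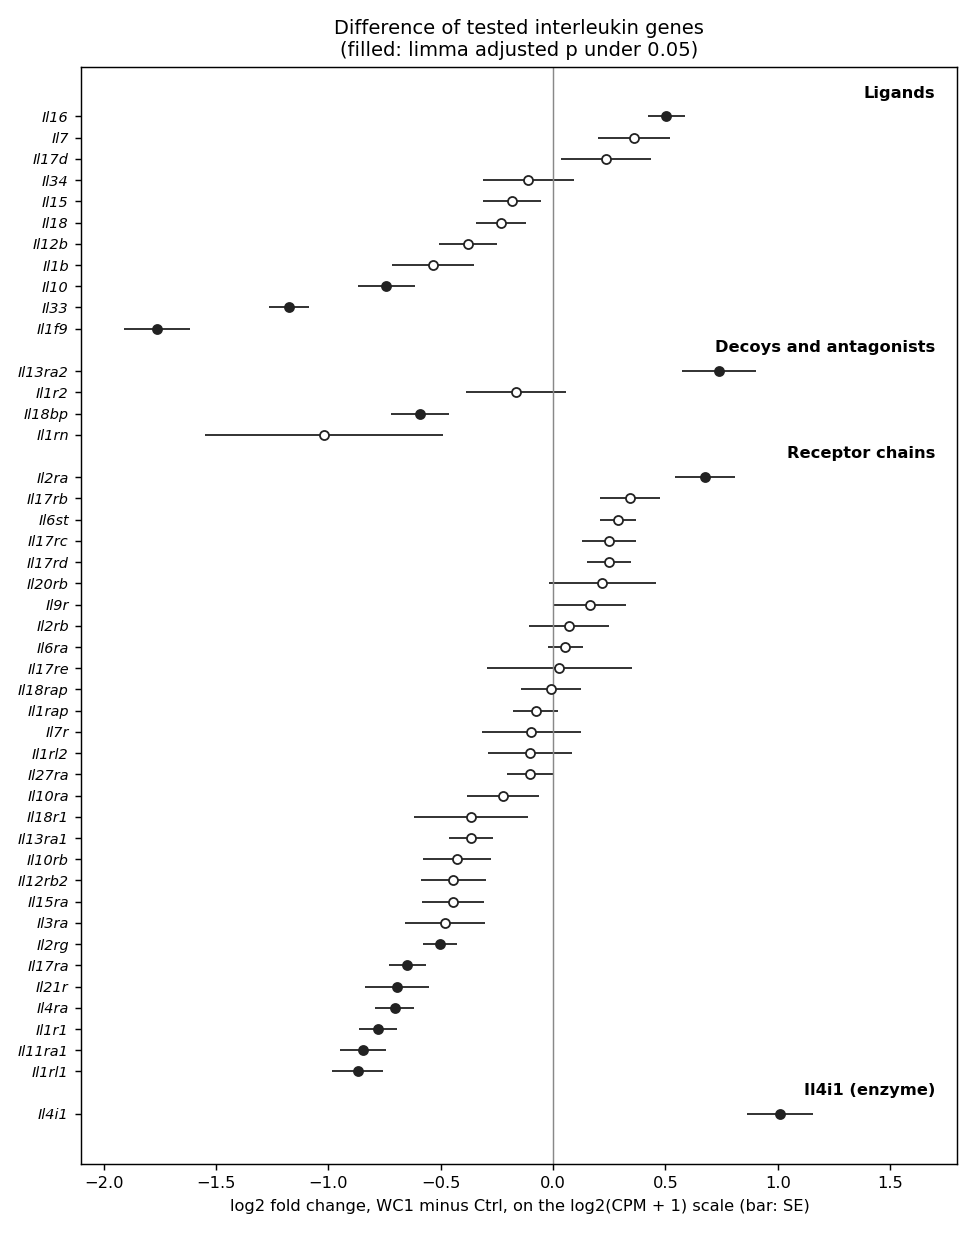
Log2 fold change, WC1 minus Ctrl, on the log2(CPM + 1) scale of the 45 tested genes with the limma SE as bar, grouped by role. Filled points are the 15 genes past the adjusted threshold, 11 to the left of 0 and 4 to the right.

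Among the ligands, Il33, an alarmin of stromal and endothelial cells, fell. It measured 27.4 and 25.2 CPM in Ctrl and 11.1 and 10.98 CPM in WC1. Both WC1 libraries lay well below both Ctrl libraries and close to each other. The WC1 mean of Il33 was 2.38-fold under the Ctrl mean (log2 fold change -1.18, SE 0.089, limma adjusted p = 0.00878). It is on chr19:29925114-29960718. At 20.7 and 19.1 TPM it was the most abundant ligand among the members in Ctrl, while in WC1, at 9.16 and 9.28 TPM, it lay below Il16, Il18, Il15 and Il34.

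Il1f9, an alarmin of barrier epithelia and myeloid cells, was read 185 and 184 times in Ctrl (2.71 and 2.11 CPM) and 0 times in either WC1 library. Of 24421 genes it was the only one with at least 100 reads in both Ctrl libraries and 0 in both WC1 libraries, and 0 genes showed the opposite pattern. That cut lies below the reads of Il1f9 itself, and the Ctrl libraries held more reads. The count thus describes the gene and, like its call, is no support. Against a floor of 3 reads in each WC1 library, 0.0484 CPM on average, it was at least 49.8-fold lower. The fitted value on the log2 scale, -1.76 (SE 0.15), depends on the pseudocount of 1 and is not a bound. Its receptor Il1rl2, at 3.86 and 3.53 CPM in Ctrl and 4.13 and 2.72 CPM in WC1, overlapped between the groups. No reads came from Il1f6 and Il1f8, the genes of the other IL-36 ligands.

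Il10, the anti-inflammatory cytokine, measured 2.62 and 2.93 CPM in Ctrl and 1.16 and 1.35 CPM in WC1. The WC1 values were thus below both Ctrl values, a 2.21-fold difference (log2 fold change -0.74, SE 0.13, limma adjusted p = 0.0267). Il16, a ligand of CD4 cut from a longer precursor, moved the other way, from 28.3 and 26.6 CPM in Ctrl to 37.8 and 40.9 CPM in WC1. It was the only ligand that rose, 1.43-fold (log2 fold change 0.50, SE 0.082, limma adjusted p = 0.0244). Its exons overlap those of Stard5 and 2310044K18Rik, and whether reads were counted by strand is not given. Exons of 24 of the 83 members overlap those of another gene.

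The other ligands did not pass the test. Il1b, the main secreted IL-1, measured 1.59 and 2.53 CPM in Ctrl and 1.05 and 1.13 CPM in WC1, so that the groups did not overlap, but the Ctrl libraries differed from each other by more than the WC1 libraries did (log2 fold change -0.53, SE 0.18, limma adjusted p = 0.104). The log2 fold change of Il1b was -0.76 without Ctrl 1 and -0.31 without Ctrl 2. Il18, which like IL-1β is cut by caspase-1, gave 6.77 and 6.42 CPM against 5.78 and 5.16 CPM (log2 fold change -0.23, limma adjusted p = 0.196). Il15, a lymphocyte survival factor, gave 9.75 and 8.47 CPM against 8.55 and 7.28 CPM, with overlap. Il34 (a ligand of the macrophage receptor CSF1R), Il17d, Il7 and Il12b completed the tested ligands, with log2 fold changes between -0.38 and 0.36.

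Several cytokines often discussed in obesity were hardly read at all. Il6 was read 34 and 72 times in Ctrl (0.497 and 0.827 CPM) and 25 and 15 times in WC1 (0.410 and 0.238 CPM) and was below the minimum for testing. Il1a had 45 and 32 reads against 0 and 14. Of the type 2 cytokines, Il13 had 13 and 21 reads against 20 and 30, Il4 had 7 and 7 against 0 and 0, and Il5 had 5 reads in Ctrl 1 only. Il17a was read 7 times, in Ctrl 1 only. These genes were too rare to be tested, and no difference is drawn from their reads. The other untested ligands, Il2, Il11, Il12a, Il17b, Il17c, Il17f, Il19, Il21, Il23a and Il27, reached at most 32 reads in any library. Apart from Il6, the genes of this paragraph were named after their values were seen, to account for the members.

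Among receptor chains the IL-1 receptor cluster on chromosome 1 holds 6 genes in a row on the plus strand, namely Il1r2, Il1r1, Il1rl2, Il1rl1, Il18r1 and Il18rap, and 2 of them fell. Il1r1, the signalling IL-1 receptor (chr1:40225080-40317257), measured 61.5 and 64.2 CPM in Ctrl and 38.2 and 34.3 CPM in WC1. Il1rl1, the IL-33 receptor ST2 (chr1:40429570-40465415), measured 30.5 and 33.7 CPM against 18.6 and 15.7 CPM. For both genes the groups were far apart compared with the spread inside them. Il1r1 was 1.73-fold lower in WC1 (log2 fold change -0.78, SE 0.083, limma adjusted p = 0.0139), and Il1rl1 was 1.87-fold lower (log2 fold change -0.87, SE 0.11, limma adjusted p = 0.0181). Il1rl1 also encodes a soluble decoy form, which gene-level values do not separate from the receptor.

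The 4 neighbours in the cluster did not separate the groups. Il18r1, the IL-18 receptor, gave 2.51 and 2.92 CPM in Ctrl and 1.26 and 2.67 CPM in WC1, and its partner Il18rap gave 1.87 and 2.10 CPM against 2.16 and 1.78 CPM. Il1rap on chromosome 16, the accessory chain that IL-1, IL-33 and IL-36 receptors share, was at 13.0 and 11.9 CPM against 12.2 and 11.3 CPM, so the shared chain overlapped between groups while Il1r1 and Il1rl1 fell. Its log2 fold change was -0.08 (SE 0.10, limma adjusted p = 0.604) and turned to 0.07 in the TPM matrix.

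**Figure D3:**
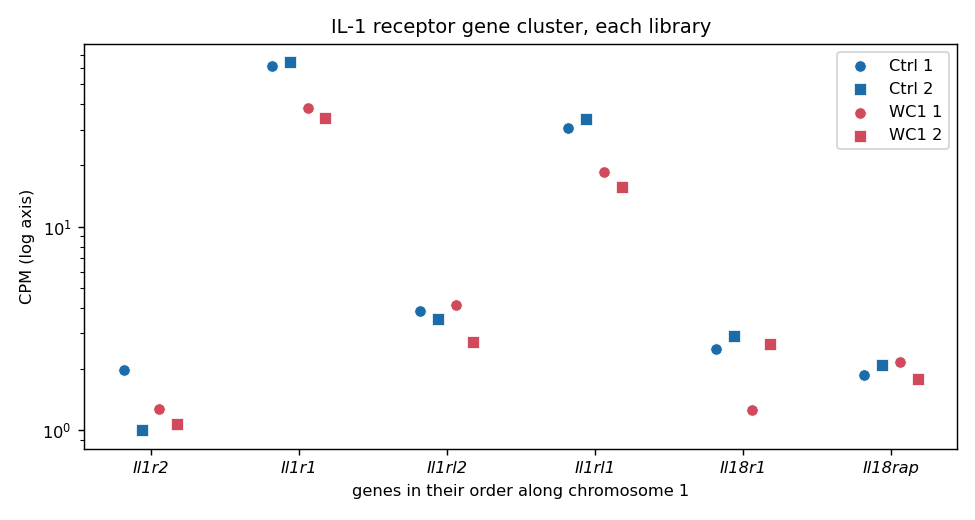
CPM on a log axis of the 6 genes of the IL-1 receptor cluster in their order along chromosome 1, 1 point per library (blue, Ctrl; red, WC1; circle, library 1; square, library 2). Il1r1 and Il1rl1 are lower in both WC1 libraries, while the points of the other 4 genes overlap.

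The receptors of IL-4 and of the cytokines that share the common gamma chain contributed 3 lower chains and 1 higher. Il4ra, the chain that binds IL-4 in both IL-4 receptor types, measured 107 and 119 CPM in Ctrl and 71.6 and 66.4 CPM in WC1. The common gamma chain Il2rg measured 48.3 and 49.3 CPM against 32.8 and 35.4 CPM. Il21r, the IL-21 receptor, was at 7.44 and 6.19 CPM against 3.47 and 4.18 CPM. In all 3 every WC1 library was under every Ctrl library. The differences were 1.64-fold for Il4ra (log2 fold change -0.71, SE 0.085, limma adjusted p = 0.0164), 1.43-fold for Il2rg (log2 fold change -0.51, SE 0.075, limma adjusted p = 0.0217) and 1.78-fold for Il21r (log2 fold change -0.70, SE 0.14, limma adjusted p = 0.0367). Il21r was not called without a minimum level or in the TPM matrix, and exons of Il4ra overlap those of Gm44876 and exons of Il2rg those of Gm20489, the latter on the same strand. Il2ra, the high-affinity IL-2 chain CD25 that regulatory T cells carry, was higher in WC1. It measured 4.05 and 3.95 CPM in Ctrl and 6.29 and 7.75 CPM in WC1, a 1.76-fold rise (log2 fold change 0.68, SE 0.13, limma adjusted p = 0.0336) that was not called without a minimum level. It was the only receptor chain that rose.

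Summed markers of regulatory T cells and group 2 innate lymphoid cells were 37.8 and 39.5 CPM in Ctrl and 37.4 and 37.7 CPM in WC1, mostly from Rora. The sum does not show its rare members. Foxp3, the defining gene of regulatory T cells, was at 0.146 and 0.356 CPM in Ctrl and 0.524 and 0.365 CPM in WC1, and Klrg1 at 0.366 and 0.264 CPM against 0.557 and 0.397 CPM, both under the minimum for testing. Icos was at 0.717 and 0.793 CPM against 1.39 and 1.14 CPM (log2 fold change 0.37, limma adjusted p = 0.114). These 3 of the 10 listed genes, named after their values were seen, were higher in both WC1 libraries than in either Ctrl library. Of all tested genes 32.7% were so, and none of the 6 tested genes of the list passed the test. Rora lay the other way, at 30.8 and 33.3 CPM in Ctrl and 29.3 and 29.4 CPM in WC1, and the remaining 6 overlapped between the groups. The part of these cells in the rise of Il2ra was not tested. Markers of T and NK cells summed to 21.3 and 15.2 CPM against 14.9 and 25.1 CPM, with overlap between the groups. Il7r, the IL-7 receptor of lymphocytes, depended on a single library. It gave 130 and 129 CPM in Ctrl but 153 and 95.7 CPM in WC1, with the Ctrl libraries between the WC1 libraries (log2 fold change -0.10, SE 0.22). The fold change was -0.43 without WC1 1 and 0.24 without WC1 2. Il13ra1, which pairs with Il4ra, gave 28.4 and 27.5 CPM against 23.1 and 20.0 CPM. Its groups did not overlap, and its log2 fold change of -0.37 (SE 0.097) narrowly missed the limma threshold at an adjusted p of 0.0606.

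Of the receptor chains that work with gp130, the signal transducer of the IL-6 group, Il11ra1 fell. The IL-11 receptor Il11ra1 measured 153 and 137 CPM in Ctrl and 86.1 and 74.5 CPM in WC1, a 1.81-fold drop with the groups apart (log2 fold change -0.85, SE 0.10, limma adjusted p = 0.0165), and its exons overlap those of Ccl27a. A near-identical copy, Il11ra2, was listed at 0 in 3 libraries and with 173 reads in WC1 1, so that reads of the pair may have been split between them in that library. With the pair added up, an alternative chosen after seeing the data, the log2 fold change was -0.82 (SE 0.11, limma adjusted p = 0.0195). The gp130 gene itself, Il6st, gave 204 and 196 CPM in Ctrl and 234 and 254 CPM in WC1. The groups lay apart, but the log2 fold change of 0.29 (SE 0.079) had a limma adjusted p of 0.0652. Il6ra, the IL-6 binding chain, stayed between 42.8 and 47.5 CPM in the 4 libraries, and its fold change of 0.05 turned to -0.01 without WC1 1.

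Of the IL-17 receptor chains, Il17ra, common to most IL-17 receptors, measured 31.1 and 34.0 CPM in Ctrl against 20.3 and 20.4 CPM in WC1. The WC1 libraries were almost identical and 1.60-fold below Ctrl (log2 fold change -0.65, SE 0.082, limma adjusted p = 0.0175). The other 4 IL-17 receptor chains, Il17rb, Il17rc, Il17rd and Il17re, had log2 fold changes between 0.03 and 0.34 and did not pass.

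The IL-10 receptor chains were among the most abundant members. Il10rb, a chain shared by several IL-10 family receptors, had the highest mean of all members, 199.8 TPM. It gave 214 and 207 CPM in Ctrl and 182 and 135 CPM in WC1, and did not pass the test (log2 fold change -0.43, SE 0.15, limma adjusted p = 0.112). WC1 2 was the lowest library, and the fold change was -0.64 without WC1 1 and -0.21 without WC1 2. Il10ra, the IL-10 binding chain, overlapped between the groups at 102 and 84.0 CPM against 90.3 and 69.4 CPM. Its log2 fold change, -0.22, was -0.41 without WC1 1 and -0.035 without WC1 2. With all libraries Il10 passed the test and its receptor chains did not. The fall of both chains was larger without WC1 1, where WC1 2 alone stands for its group. The difference between ligand and receptor was not itself tested. The remaining tested receptor chains, Il2rb, Il3ra, Il9r, Il12rb2, Il15ra, Il20rb and Il27ra, had log2 fold changes from -0.48 to 0.22, and did not pass. The receptor chains Il1rapl1, Il5ra, Il12rb1, Il22ra1, Il23r and Il31ra had at most 40 reads in a library.

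The decoys and antagonists did not move as a group. Il18bp, the soluble protein that neutralises IL-18, measured 6.97 and 8.39 CPM in Ctrl and 4.54 and 4.94 CPM in WC1. It was 1.62-fold lower (log2 fold change -0.59, SE 0.13, limma adjusted p = 0.0408), but it was not called without a minimum level or in the TPM matrix, and its exons overlap those of Numa1. Il13ra2, the decoy receptor of IL-13, was higher, with 2.47 and 1.74 CPM in Ctrl against 4.47 and 3.83 CPM in WC1. The rise was 1.97-fold (log2 fold change 0.74, SE 0.17, limma adjusted p = 0.0431), close to the threshold, and the call was lost without a minimum level, after quantile normalization and in edgeR.

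Il1rn, the IL-1 receptor antagonist, was the most abundant member outside the receptor chains and was split by a single library. It measured 208 and 210 CPM in Ctrl, 184 CPM in WC1 1 and 57.3 CPM in WC1 2. WC1 1 was thus close to Ctrl and WC1 2 far below it. The log2 fold change of -1.02 came with an SE of 0.53 and did not pass (limma adjusted p = 0.226). It was -1.85 without WC1 1 and -0.19 without WC1 2. Il1r2, the IL-1 decoy receptor, was low and scattered, at 1.99 and 1.0 CPM in Ctrl and 1.28 and 1.08 CPM in WC1, and its log2 fold change of -0.17 (SE 0.22) turned to 0.12 without Ctrl 1. Il22ra2, the soluble IL-22 decoy, had at most 16 reads.

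**Figure D4:**
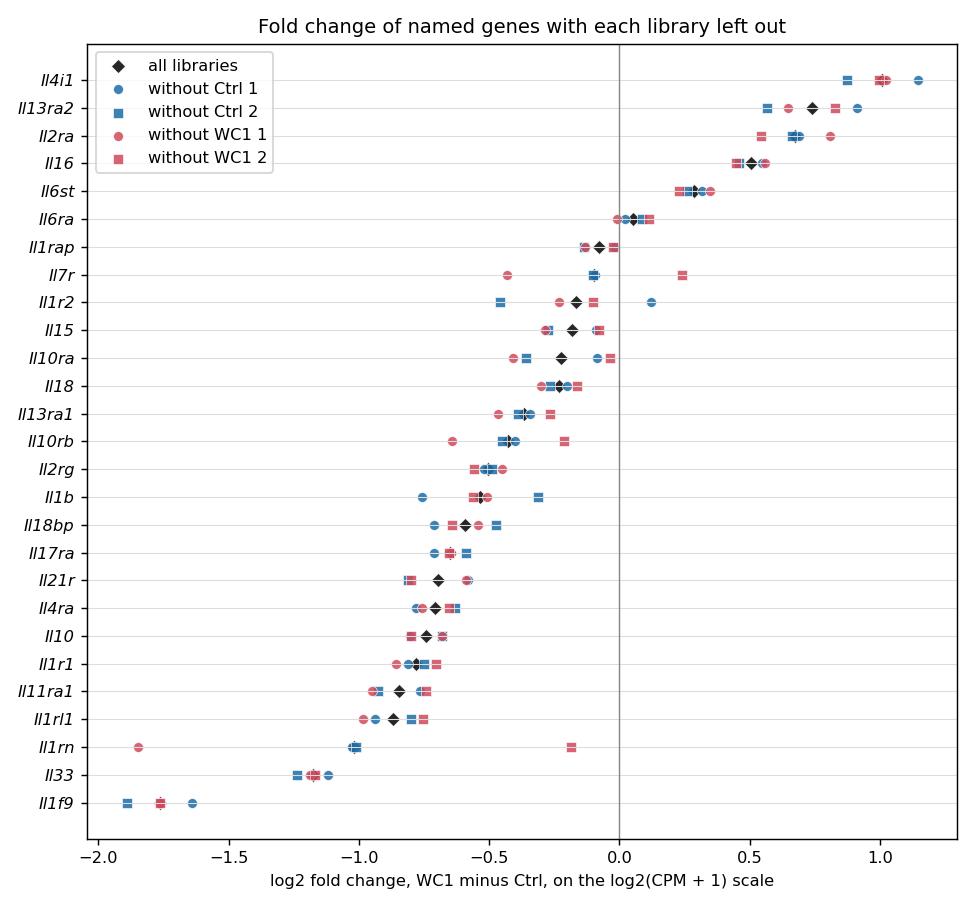
Log2 fold change, WC1 minus Ctrl, on the log2(CPM + 1) scale of the 27 named genes that were tested, with all libraries (black diamond) and with each library left out in turn (blue, a Ctrl library left out; red, a WC1 library left out). The groups of the 15 genes past the threshold did not overlap, so leaving out 1 library could not turn their sign. Il1rn ranged from -1.85 to -0.19, and Il7r crossed 0.

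Ligand, receptor and decoy levels can be set against each other in TPM, as a description with no test. The ratio of Il13ra1 to its decoy Il13ra2 was 6.97 and 9.52 in Ctrl and 3.06 and 3.19 in WC1, and that of Il4ra to Il13ra2 was 19.2 and 30.1 against 6.93 and 7.73. Transcripts of the signalling chains thus exceeded those of the decoy in every library, by a smaller margin in WC1. The ratio of Il18 to Il18bp was 1.57 and 1.24 in Ctrl and 2.06 and 1.69 in WC1, and that of Il11ra1 to Il6st was 2.33 and 2.16 against 1.14 and 0.906. Il33 stood to Il1rl1 as 1.72 and 1.41 in Ctrl and as 1.12 and 1.33 in WC1. In contrast, the antagonist Il1rn exceeded Il1b by 70.5 and 44.8 times in Ctrl and by 95.0 and 27.6 times in WC1, and Il1r1 exceeded Il1r2 by 8.77 and 18.2 against 8.43 and 8.97 times, so that the groups overlapped in both. Summed over all receptor chains, the level was 914 and 897 TPM in Ctrl and 831 and 727 TPM in WC1. The ligands summed to 91.9 and 94.7 TPM against 78.2 and 86.8 TPM. Decoys and antagonists summed to 176 and 179 TPM in Ctrl, 168 TPM in WC1 1 and 63.3 TPM in WC1 2, where the lower sum went with Il1rn.

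Il4i1, which encodes a secreted amino acid oxidase of myeloid and B cells and is no cytokine despite its symbol, showed the largest rise among the tested members. It measured 0.804 and 0.494 CPM in Ctrl and 2.28 and 2.34 CPM in WC1, 3.55-fold higher (log2 fold change 1.01, SE 0.15, limma adjusted p = 0.0209). Its levels were low, 55 and 43 reads in the Ctrl libraries and 139 and 147 in the WC1 libraries, and its exons overlap those of Nup62 on the same strand and of Atf5 and Tbc1d17 on the other. The antisense RNA Il1bos had at most 7 reads.

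The signalling genes downstream of these receptors were counted against the same shares of all tested genes, 7.71% lower and 10.2% higher in WC1. Of 29 IL-1 and IL-33 signalling genes, all tested, 3 fell and 1 rose, with a median log2 fold change of -0.03. Those that fell were Myd88, the adaptor of the family (log2 fold change -0.34), Ikbkg, which encodes the NEMO subunit of the IkB kinase (-0.47), and Traf3ip2 (-0.48), which is on the list but is best known as the adaptor ACT1 of IL-17 receptors. Irak2, a kinase of the MyD88 complex, rose (log2 fold change 0.37). Of 21 genes of the inflammasome and IL-1 processing, 19 were tested and 4 fell (7.71% of all tested genes), with a median log2 fold change of -0.33. Casp1, the protease that matures IL-1β and IL-18, went from 94.9 and 90.3 CPM in Ctrl to 65.6 and 47.8 CPM in WC1 (log2 fold change -0.72, limma adjusted p = 0.0414). Casp4 (log2 fold change -0.60), the DNA sensor Aim2 (-0.56) and the pore protein Gsdmd (-0.34) fell as well.

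On the JAK and STAT side, 3 of 21 genes rose and 1 fell, with a median of -0.0039 on the log2 scale. Irs1 and Irs2, insulin receptor substrates that IL-4 receptors also use, rose by 0.85 and 0.68 on the log2 scale. Ptpn6, the phosphatase SHP-1 of blood cells, had a log2 fold change of -0.49. Of 8 SOCS feedback inhibitors only Socs3, induced by IL-6 and IL-10 signals, passed the test. It measured 28.4 and 36.4 CPM in Ctrl and 17.8 and 17.1 CPM in WC1 (log2 fold change -0.85, SE 0.13, limma adjusted p = 0.0236). Among 24 cytokines and chains that belong to these families but carry other symbols, 22 were tested and 4 fell (7.71% of all tested genes) and none rose, so that the share called in either direction was close to the 17.9% of all genes. They included Clcf1 (log2 fold change -1.09) and Osm (-0.96), cytokines that signal through gp130, and Ebi3 (-0.59), a subunit of IL-27 and IL-35.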

How the data were processed

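RNA was purified from epididymal adipose tissue, and poly(A) libraries were made with a directional kit, 2 Ctrl and 2 WC1. The submitters' processing notes name fastp, HISAT2, StringTie and the build mm10 (annotation, read counter and strand setting: not given in the sources used here). The authors deposited 2 matrices of 24421 genes. In the first, called CPM, the deposited values are a signal that the authors made by dividing the reads of a gene by a rescaled library size, since its columns summed to between 97.6% and 105% of what plain CPM gives. In it 100% of the values were whole reads to within 0.01 read, and these reads were recovered. The second was deposited as TPM. Members, roles and gene lists were chosen with earlier results of these data known.

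The 14106 genes that reached 0.5 CPM in 2 or more libraries were compared by limma 3.58.1 (R 4.3.3) with an abundance trend on log2(CPM + 1), as a two-sided test at 0.05, adjusted by Benjamini-Hochberg across these genes. Fold changes on this scale understate the change of rare genes. edgeR 4.0.16 and DESeq2 1.42.0 were run on the recovered reads, and the scripts were tested on simulated data. Limits from 3 reads cover counting error only. Genes named were all members past the threshold, the 3 most abundant of each role, a fixed set known from adipose inflammation, and up to 5 genes past the threshold per pathway list, some of which are not reported here. Exon overlaps and gene positions came from GENCODE M21 (GRCm38), and promoter windows from RefSeq (GRCm38.p6), the same build as mm10.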

Additional observations from a re-analysis of the deposited data

How the results depend on the processing

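Of 15 alternatives, 4 moved a count of calls by over 1.5 times. With no minimum level, where 70 members instead of 45 and 18132 genes instead of 14106 were tested and 7.28% of all genes were called, 2 members were called higher, instead of 4, and 9 lower, instead of 11. Leaving out 1 library gave 0 to 9 higher and 0 to 17 lower, with 0 when either Ctrl library was left out (the WC1 pair alone then sets the spread, and the lone Ctrl library is assumed to vary like it), 9 and 17 when WC1 1 was dropped, and 4 and 12 when WC1 2 was; the 15 calls were kept in both of the latter. The TPM matrix, in which the median log2 fold change of all tested genes was 0.10 instead of -0.02, gave 5 higher and 9 lower, edgeR 3 and 11 (17.6% of all genes called), and DESeq2 5 and 13 (27.4%). Of the 15 calls, edgeR shared 14, DESeq2 15, TPM 13 and the fit with no minimum 11; with all libraries kept, the calls lost in any setting were those of Il13ra2, Il18bp, Il21r and Il2ra. Il13ra1 passed with the replicate block and in DESeq2, and Il6st in TPM and DESeq2. The fold change turned sign for Il1rap (0.068) and Il7r (0.043) in TPM. Leaving out a library moved it between -0.46 and 0.12 for Il1r2, between -0.0079 and 0.12 for Il6ra and between -0.43 and 0.24 for Il7r, none of them called with all libraries. The labels do not say that equal replicate numbers pair the mice, and the deviations of equal numbers correlated at r = 0.194 over 14106 genes. With the replicate block, 4 members were called higher and 13 lower, while calls over all genes rose from 17.9% to 23.2%. Members under the minimum level had at most 173 reads in a library, and no test was made on them with the minimum in place.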
